A study of Mus musculus with 2 samples.

Results

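The genes described here encode the Wnt ligands, their Frizzled and other receptors, and the proteins that raise or damp the signal. They were taken by symbol from the array's annotation. A probe set belonged if its only symbol was Wnt, Fzd, Dkk or Sfrp followed by a number, or was 1 of a short list of named modulators. The rule found 60 probe sets of 56 genes, among 22180 genes named on the array. It compares 2 three-dimensional skin models grown from mouse cells, 1 labelled Itih5 knockout and 1 wildtype, both with 7d in the title. The keratinocytes and fibroblasts of each came from the skin of adult, untreated mice and had been passaged in culture. The series title names ITIH5, a secreted heavy chain of the inter-alpha-trypsin inhibitor family, as stabilizing hyaluronan, and the comparison asks how expression differs between the genotypes. With 1 array per genotype there was no replicate error and no test was possible, so every difference below describes these 2 arrays. Itih5 itself read 30.4 on the knockout and 29.8 on the wildtype array, near background on both, so it checks neither label.

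Wnt proteins are secreted, lipid-modified ligands that bind Frizzled receptors. Together with the co-receptors Lrp5 and Lrp6 they keep beta-catenin from being degraded, and beta-catenin then acts in the nucleus with Tcf and Lef proteins. In skin this pathway is known for hair follicle formation, for stem cell renewal and for exchange between epidermis and dermis. Other Wnt proteins signal without beta-catenin, through receptors such as Ror2 and Ryk, and shape cell polarity and movement.

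Values are array intensities, and a difference is the log2 intensity of the knockout minus that of the wildtype array. The deposited numbers had lost their decimal point, which was put back from the form of the numbers (described under the processing). Of the 60 probe sets, 39 allowed 1 place of the point on both arrays and 21 allowed several. The likeliest reading was kept for 59 probe sets, and 1, for Wnt5a, remained undecided. Genes were taken as expressed where either intensity was at least 46.6, which is the median over the probe sets. For comparison, the 5th percentile of each array, near background, was 21.4. Of the 55 member genes with a settled level, 40 (72.7%) were expressed, against 60.9% of all genes. Levels of different genes come from different probes and are not ranked against each other.

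Most of the Wnt list read alike in both models, as did most genes expressed on the arrays. Of the 40 expressed members, 1 was at least 2-fold higher on the knockout array (2.5%, against 3.84% of 12684 expressed genes). Likewise 1 was at least 2-fold lower (2.5%, against 3.29%). These were Dkk3, an atypical member of the Dickkopf family of secreted proteins, which was higher, and the ligand gene Wnt4, which was lower. At 1.5-fold, 6 members were higher (15.0%, against 11.5% of expressed genes) and 4 were lower (10%, against 8.25%). The other 30 (75%) lay within 1.5-fold, as did 80.3% of all expressed genes. The list's median difference was 0.003, beside 0.04 for all expressed genes. The threshold itself set the sign of 5 expressed members (Dkk1, Fzd9, Wnt2b, Wnt6 and Wnt9b), which reached it on the wildtype array only. Over the 35 members above it on both arrays, 20 (57.1%) lay above 0 and 15 below, beside 55.0% above 0 of the 11383 such genes, and the median was 0.07.

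The sequence before the transcription start is shown for 4 members whose readings recur below: Wnt4, lower by the 2-fold mark, Fzd1 and Dkk2, which read higher, and Axin2, a widely used target gene of beta-catenin. Each is the 250 bases upstream of an annotated start, from RefSeq on GRCm38.p6, written in the direction of transcription. Capitals mark GC boxes, spelled GGGCGG, as well as TATA boxes, spelled TATAAA, and TCF/LEF cores (CTTTGAA or CTTTGAT or CTTTGTA or CTTTGTT), searched on both strands, where matches may overlap.
Wnt4 (chr4:137277385-137277634, strand +): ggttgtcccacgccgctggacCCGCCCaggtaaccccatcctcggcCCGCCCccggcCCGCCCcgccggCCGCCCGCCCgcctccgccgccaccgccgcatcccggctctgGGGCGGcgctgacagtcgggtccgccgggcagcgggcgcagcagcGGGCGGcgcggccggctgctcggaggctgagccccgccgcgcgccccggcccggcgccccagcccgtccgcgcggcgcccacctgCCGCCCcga
Fzd1 (chr5:4758217-4758466, strand -): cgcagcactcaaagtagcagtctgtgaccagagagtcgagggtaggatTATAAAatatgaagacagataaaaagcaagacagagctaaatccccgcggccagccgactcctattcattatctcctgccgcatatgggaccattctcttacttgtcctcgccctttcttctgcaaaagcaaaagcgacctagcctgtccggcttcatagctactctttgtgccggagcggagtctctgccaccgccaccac
Axin2 (chr11:108920099-108920348, strand +): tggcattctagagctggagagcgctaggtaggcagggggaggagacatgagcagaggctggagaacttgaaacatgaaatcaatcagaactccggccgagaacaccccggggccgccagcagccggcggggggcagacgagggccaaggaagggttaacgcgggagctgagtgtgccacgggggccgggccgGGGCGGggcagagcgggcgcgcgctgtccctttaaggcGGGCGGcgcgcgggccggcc
Dkk2 (chr3:132085042-132085291, strand +): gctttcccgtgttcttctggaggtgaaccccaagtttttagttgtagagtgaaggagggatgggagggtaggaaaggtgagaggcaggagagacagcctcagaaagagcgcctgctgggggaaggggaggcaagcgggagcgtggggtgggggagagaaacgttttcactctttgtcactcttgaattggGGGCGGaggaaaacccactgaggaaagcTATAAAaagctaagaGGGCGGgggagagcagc

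In these windows, Wnt4 held 8 GC boxes in a stretch of 85.2% G and C, while Fzd1 held none and 51.2% G and C. Axin2 and Dkk2 held 2 GC boxes each. A TATA box lay 32 bases before the start of Dkk2 and another 202 bases before that of Fzd1. None of the 4 held a TCF/LEF core, which says only that those letters are not in these windows. The table gave 45 such windows for 37 of the 56 member genes, some with several starts. G and C made up a median of 66.4% of the member windows, against 52.4% of all 32851 windows. A GC box was present in 71.1% of member windows and 32.7% of all windows. TCF/LEF cores were found in 13.3% of member windows and 14.8% of all, and TATA boxes in 17.8% and 12.4%. Windows with a TCF/LEF core belonged to Fzd7 and Dkk1, and to 1 of several starts each of Lef1, Wnt5b, Wnt11 and Tcf7l2.

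Among the ligands, Wnt4 was past 2-fold, and the others lay close together. Wnt4, known in skin as an epidermal and stromal ligand, read 120 on the knockout and 248 on the wildtype array, 2.06-fold lower (log2 difference -1.04), with 1 possible place of the point on both arrays. It is only just past the 2-fold mark, and with a pseudocount of 16 its difference was -0.95. The other 11 expressed ligands lay within 1.5-fold, from -0.30 for Wnt5b to 0.26 for Wnt8a. Of the 9 ligands above the threshold on both arrays, 5 read lower and 4 higher, with a median of -0.09, where 55.0% of all such genes lay above 0.

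Wnt10a, a ligand needed for teeth, hair and sweat glands, read 172 on the knockout and 156 on the wildtype array. Wnt7b, an epithelial ligand, read 99.6 and 122 at its likeliest places. Wnt5b, which usually signals without beta-catenin, read 55.0 and 67.9. In these readings each of the 3 lay within 1.5-fold. Wnt3a, the ligand most used to activate beta-catenin in culture, read 65.6 and 70.0. Wnt9a read 69.5 and 79.3. Wnt11 read 68.0 and 63.3. These readings also lay within 1.5-fold. For Wnt7b, Wnt9a and Wnt11 they are less firm than for the others, since each had a second possible intensity, 996 for Wnt7b on the knockout array, 793 for Wnt9a on the wildtype array and 680 for Wnt11 on the knockout array. Wnt7a read 54.2 and 51.5, and Wnt8a 64.5 and 53.8, just above the threshold. Wnt2b (44.2 and 47.1), Wnt6 (43.3 and 46.6) and Wnt9b (42.0 and 48.4) reached it in the wildtype model only, so they carry little information. Wnt1, Wnt2, Wnt3, Wnt8b, Wnt10b and Wnt16 were below it on both arrays, between 22.7 and 44.3.

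Wnt5a, the main ligand of the beta-catenin-independent branch and strongly made by dermal fibroblasts, was the undecided probe set. Its intensity could be 84.9 or 849 on the knockout array and 103 or 1031 on the wildtype array, which makes 4 readings. The pair 84.9 and 103 and the pair 849 and 1031 give the same difference, -0.28, and together had a probability of 0.99, while the likelier of them had 0.51. The other pairs give -3.60 and 3.04. Wnt5a is left out of the counts, since its level is unknown.

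Some ligand genes are next to each other on the chromosome, with no other protein-coding gene annotated between them. Wnt6 and Wnt10a differed by -0.11 and 0.14, Wnt9b and Wnt3 by -0.20 and 0.25, and Wnt10b and Wnt1 by -0.36 and 0.16, while Wnt3a and Wnt9a differed by -0.09 and -0.19. In the other 3 pairs at least 1 gene was below the threshold on an array, so their signs are near background and are not read.

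**Figure D1:**
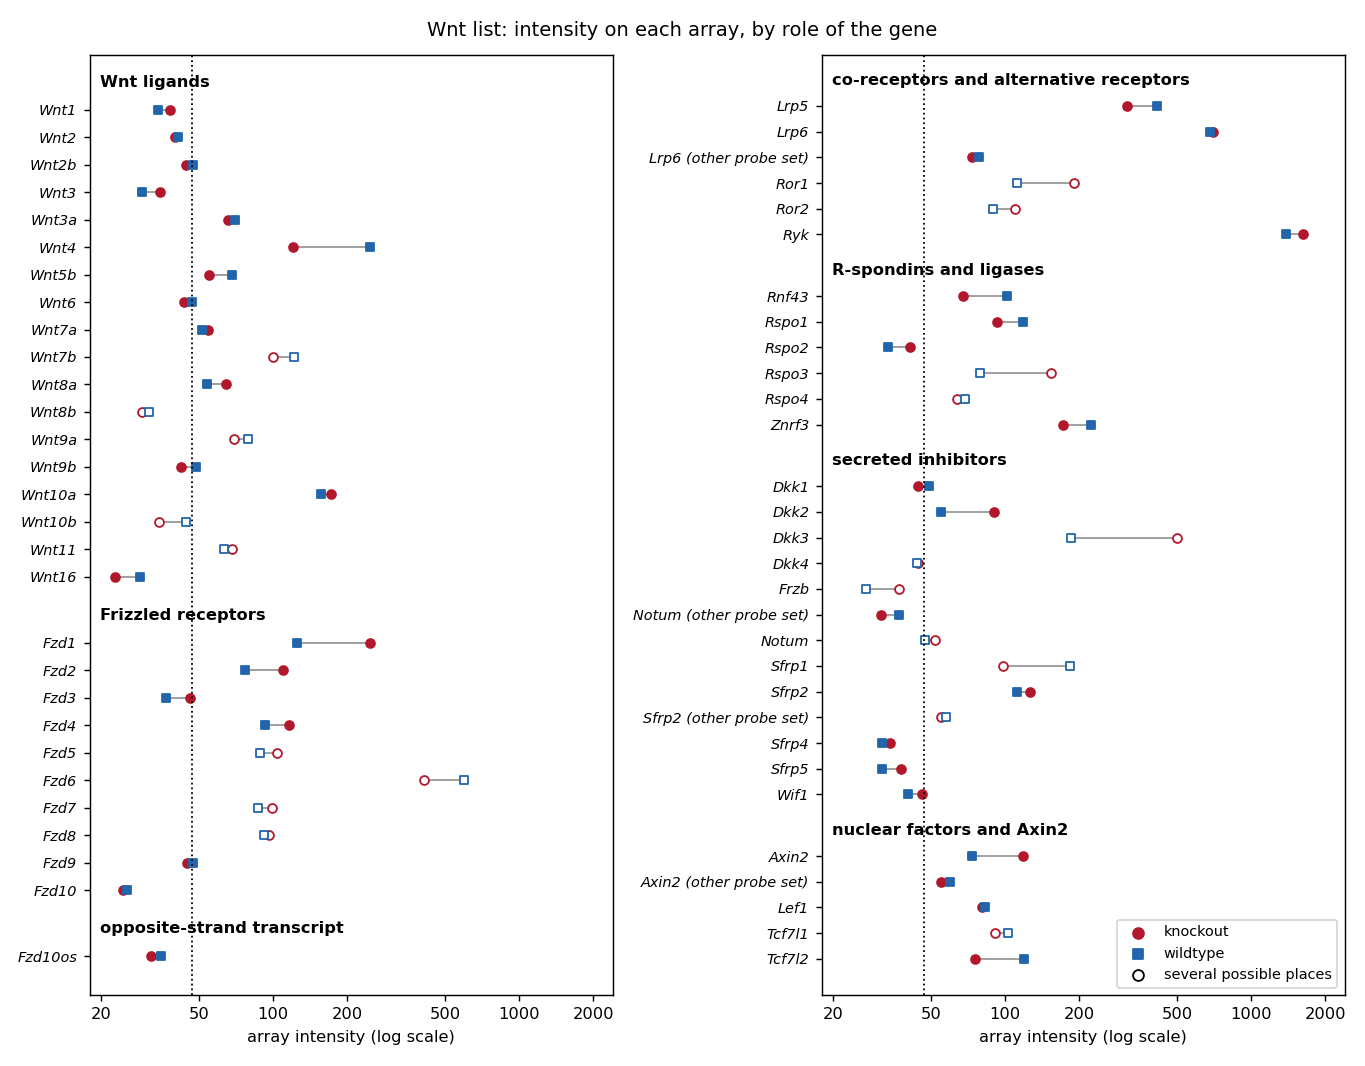
Intensity of each Wnt list probe set with a settled level (log scale), with red circles for the knockout and blue squares for the wildtype array. Open symbols mark probe sets with several possible places of the point, and the dotted line is the expression threshold of 46.6. Many pairs of symbols nearly touch. Among those visibly apart are Wnt4 (120 and 248), Fzd1 (248 and 126), Dkk3 (499 and 185), Rspo3 (154 and 79.2) and Sfrp1 (98.0 and 183).

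Frizzled receptors, the seven-pass membrane proteins that bind Wnt ligands, included 8 expressed genes, none of them 2-fold apart, with a median of 0.21, beside 0.04 for all expressed genes. Of the 7 above the threshold on both arrays, 6 lay above 0 and 1 below, where 55.0% of all such genes lay above 0. Fzd1 read 248 on the knockout and 126 on the wildtype array, 1.97-fold higher (0.98), with 1 possible place. Fzd2 read 110 and 76.8, or 1.43-fold higher. Fzd4, a receptor also used by the ligand norrin, read 116 and 92.3. These were the 3 Frizzled genes with the most positive differences, and the point of each had 1 possible place.

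Fzd5 read 103 on the knockout and 88.2 on the wildtype array, Fzd7 98.5 and 86.5, and Fzd8 95.9 and 91.5. All 3 were within 1.2-fold in the likeliest reading, but each had another possible place of the point on the wildtype array. Fzd6, which serves planar polarity and hair orientation in skin, was the receptor with the most negative difference. It read 411 on the knockout and 597 on the wildtype array, 1.45-fold lower (-0.54). Its reading only just reached the required probability (0.95). The alternative that shifts both arrays by a digit, 4107 and 5973, leaves the difference as it is, and the probability of the difference was 0.982. Fzd9 read 44.8 and 47.3, at the threshold. Fzd3 and Fzd10 were below it, between 24.5 and 45.9. The transcript Fzd10os, named for the strand opposite Fzd10 and not a receptor, was also below it, with 31.9 and 34.9.

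The co-receptors and alternative receptors gave mixed readings. Lrp5, the co-receptor that joins Frizzled for beta-catenin signalling, read 314 on the knockout and 416 on the wildtype array (-0.41). Its close relative Lrp6 read 700.2 and 680 (0.04), and its other probe set 73.7 and 78.3 (-0.09). Both probe sets of Lrp6 thus put it near 0, while Lrp5 was 1.33-fold lower. Among receptors of the other branch, Ryk, an inactive tyrosine kinase that binds Wnt, read 1627 and 1393 (0.22). Ror2, the receptor for Wnt5a, read 110 and 89.7 (0.30). Ror1 read 191 and 112, 1.71-fold higher (0.77). All 3 lay above 0, but Ror1 and Ror2 had a second possible place on the knockout array, 1912 for Ror1 and 1101 for Ror2. Their likeliest readings had probabilities of 0.987 and 0.993.

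R-spondins raise the number of Frizzled receptors on the cell by binding the ligases Rnf43 and Znrf3, which otherwise remove them. Both ligase genes read lower in the knockout model, with 1 possible place each. Rnf43 read 67.4 on the knockout and 102 on the wildtype array, 1.51-fold lower (-0.59). Znrf3 read 172 and 224, 1.30-fold lower (-0.38). Both are themselves known as target genes of beta-catenin, beside Axin2 and Lef1 described below.

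The R-spondin genes did not share a direction. Rspo3 read 154 on the knockout and 79.2 on the wildtype array, 1.95-fold higher (0.96, probability 0.997). Its other possible knockout intensity is 1541. Rspo1 read 92.5 and 118 (-0.35), and Rspo4 63.8 and 68.9 (-0.11). The other possible wildtype intensity of Rspo4, 689, lies further in the same direction. Rspo2 was below the threshold, with 41.1 and 33.3. Of the 3 expressed R-spondin genes, Rspo3 was thus the 1 above 0, just under the 2-fold mark.

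Secreted inhibitors held the most positive difference of the whole list and 1 of the most negative. Dkk3, a secreted glycoprotein whose effect on Wnt signalling depends on the cell, read 499 on the knockout and 185 on the wildtype array, 2.70-fold higher (1.43). The knockout value had 1 possible place. The wildtype value could also be read as 18.5, at the floor of the array, which would make the difference larger and in the same direction. With probe sets of 1 possible place only, Dkk3 drops out and 0 members are at least 2-fold higher. Dkk2, a Dickkopf protein that blocks Lrp5 and Lrp6, read 89.8 and 54.8, 1.64-fold higher (0.71), with 1 possible place. Dkk1, the best known inhibitor of Lrp5 and Lrp6, read 44.2 and 49.0, at the threshold, and Dkk4 was below it.

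Sfrp1, which binds Wnt ligands outside the cell, went the other way. It read 98.0 on the knockout and 183 on the wildtype array, 1.87-fold lower (-0.90, probability 0.998), and its other possible wildtype intensity, 1835, lies further in the same direction. Sfrp2, a product of dermal fibroblasts, read 126 and 112 (0.16), and its other probe set 54.8 and 57.5 (-0.07). Both its probe sets lay near 0 in the likeliest reading, but the other probe set had a second possible knockout intensity, 548. Notum, an enzyme that removes the lipid from Wnt, read 51.7 and 47.2 on 1 probe set and 31.3 and 37.1 on the other, which had opposite signs. The wildtype value of the first could also be 472, which would put both below 0. Frzb, Sfrp4, Sfrp5, Wif1 and Dkk4 were below the threshold on both arrays, between 27.2 and 45.9. Of the 5 inhibitors above the threshold on both arrays, 4 were above 0 and 1 below, with a median of 0.16. Among all such genes, 55.0% lay above 0. The 4 include Sfrp2 and Notum, each with another probe set below 0 in its likeliest reading.

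The nuclear factors read lower or equal, and the target gene Axin2 gave no single answer. Tcf7l2, a partner of beta-catenin on DNA, read 75.8 on the knockout and 119 on the wildtype array, 1.57-fold lower (-0.65), with 1 possible place. Tcf7l1, which mostly represses Wnt targets in skin stem cells, read 91.1 and 103 (-0.18). Its other possible wildtype intensity, 10317, lies further in the same direction. Lef1, a factor of the hair follicle and dermis, read 80.6 and 82.7 (-0.04). So all 3 factors lay below 0 in these readings, Lef1 barely, and 1 of them was past 1.5-fold. Tcf7 was not analysed here.

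Axin2, a negative feedback regulator whose transcription follows beta-catenin activity, was measured by 2 probe sets, each with 1 possible place. The one used for the gene read 118 on the knockout and 73.3 on the wildtype array, 1.61-fold higher (0.69). The other read 54.9 and 59.7 (-0.12). The mean over both was 0.29. Which part of the gene each probe set covers, and on which strand, was not analysed here. The Axin2 value counted above is therefore that of 1 probe set and not shared by the other.

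**Figure D2:**
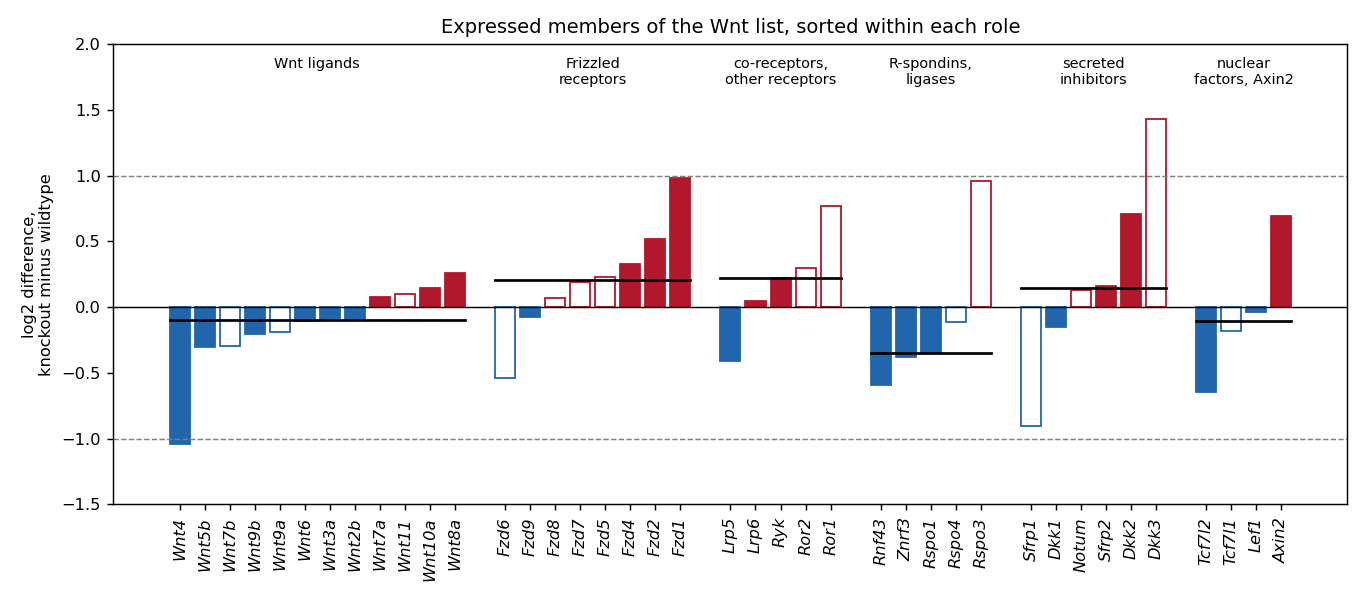
Log2 difference, knockout minus wildtype, of the 40 expressed members, sorted within each role (red above 0, blue below). Open bars mark several possible places of the point, black lines are role medians and dashed lines mark 2-fold. Dkk3 (1.43) and Wnt4 (-1.04) are the bars that pass a dashed line, and Fzd1 (0.98) and Rspo3 (0.96) end just short of it.

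Other genes of the pathway, outside the symbol rule, were taken from 6 lists of known function. Of 89 symbols listed, 84 matched a probe set with a single symbol, 74 had a settled level and 71 were expressed. The 2-fold mark was passed upward by 3 of these (4.23%) and downward by 1 (1.41%), beside 3.84% and 3.29% of all expressed genes. Their median difference was 0.07. Undecided were Lgr4, Gpc3, Tnks2, Prickle1, Celsr3, Daam1, Nfatc1, Nfatc3, Jun and Birc5.

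Porcn, the enzyme that attaches the lipid without which Wnt proteins are not secreted, read 1870 on the knockout and 674 on the wildtype array. This was 2.77-fold higher (1.47), with 1 possible place. Wls, which carries the lipidated ligands to the cell surface, read 875 and 786 (0.15) in the likeliest of several possible readings. Of this pair of export genes, Porcn alone passed the 2-fold mark.

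Among 12 expressed surface modulators, the median was 0.19, and 1 gene passed 2-fold in each direction. Gpc6, a heparan sulfate glypican of the cell surface, read 406 on the knockout and 122 on the wildtype array, 3.33-fold higher (1.73). Lrp4, a receptor for sclerostin-type inhibitors, read 62.0 and 134, 2.16-fold lower (-1.11). Kremen1, a receptor for Dickkopf proteins, read 764 and 630 (0.28), and Apcdd1, a membrane inhibitor of Wnt in hair follicles, 287 and 252 (0.19). Gpc6 and Lrp4 were the pathway genes farthest apart in each direction, and each had 1 possible place. Kremen1 and Apcdd1 had several.

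The expressed genes of the core that carries the signal inside the cell read within 1.5-fold. Of 14 expressed genes of the destruction complex, Dishevelled and beta-catenin, 0 passed 2-fold and 0 passed 1.5-fold, with a median of -0.02. Among all expressed genes, 80.3% lay within 1.5-fold. Dvl2 (1.47-fold) and Btrc (1.36-fold) had the most positive differences, and Csnk1a1 (1.40-fold) and Dvl1 (1.34-fold) the most negative. Of these, Dvl2 alone had 1 possible place of the point. Ctnnb1, the beta-catenin gene, read 3193 on the knockout and 3285 on the wildtype array (-0.04). Gsk3b, the kinase that marks beta-catenin for degradation, read 1416 and 1496 (-0.08). These are transcript levels and say nothing of protein or its location. Of 14 nuclear partners, 0 passed 2-fold, with a median of 0.08. The co-activator gene Crebbp read 1400 and 1469, and the co-repressor gene Tle3 898 and 1122, both with several possible places of the point.

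Of 16 expressed genes of planar polarity and the beta-catenin-independent branch, 0 passed 2-fold, and 2 passed 1.5-fold in each direction. Their median was -0.14. The 1.5-fold mark was passed upward by 11.5% and downward by 8.25% of all expressed genes, whose median was 0.04. Counts of 2 in 16 do not set this list apart from those rates. Rac1 read 2520 on the knockout and 3002 on the wildtype array, and Rhoa 729 and 503, both small GTPases of cell movement. The lower pair was Celsr1 (305 and 557) and Celsr2 (103 and 189), polarity cadherins of the epidermis. The higher pair was the polarity gene Prickle2 (131 and 77.4) and the calcium-responsive factor gene Nfatc4 (153 and 97.3), and these 4 were named after their values were seen. Of 14 expressed target genes, 1 was at least 2-fold higher. Ccn4, a secreted matricellular protein, read 227 and 96.6, 2.35-fold higher (1.23), in the likeliest of several possible readings. At a minimum probability of 0.99 Ccn4 dropped out, which left 3 pathway genes at least 2-fold apart. Cd44, which is also the hyaluronan receptor gene, read 1291 and 2445 (-0.92), and Ppard, a nuclear receptor gene, 1194 and 1207 (-0.02). Cd44, Ppard, Celsr1 and Rhoa also had several possible places of the point. Of the 9 target genes above the threshold on both arrays, 6 lay above 0 and 3 below, with a median of 0.21. Among all such genes, 55.0% lay above 0, with a median of 0.04. Axin2, Lef1, Rnf43 and Znrf3, described above as members, were not in this count. Axin2 lay above 0 on the probe set used (0.69), while Lef1 (-0.04), Rnf43 (-0.59) and Znrf3 (-0.38) lay below it.

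**Figure D3:**
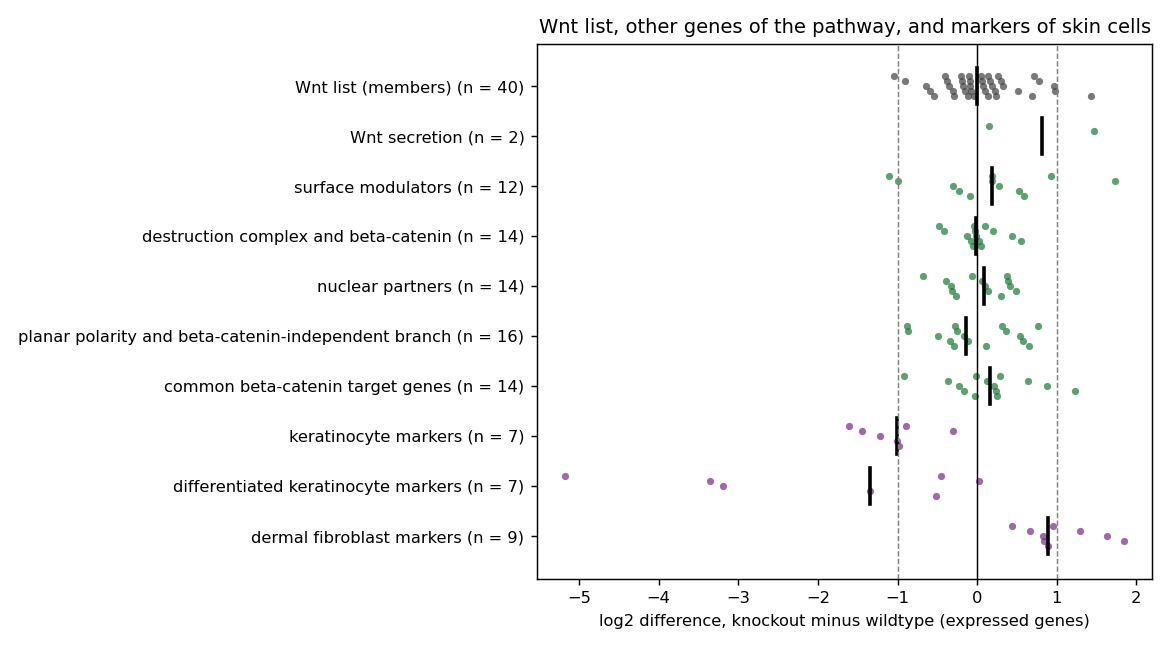
Log2 difference, knockout minus wildtype, of the expressed genes of the Wnt list, of 6 lists of other pathway genes (green) and of markers of 3 skin cell states (purple). Points are genes, black bars are medians and dashed lines mark 2-fold. The Wnt list centres on 0 (median 0.003), keratinocyte markers lie below it (-1.01) and fibroblast markers above it (0.89).

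The labelled cell types were present by their markers, but at different levels in the 2 models. Of 7 expressed keratinocyte markers, all 7 were below 0 and 4 passed 2-fold. Their summed intensity was 11843, against 28418 in the wildtype model. The dermal fibroblast markers went the other way, all 9 expressed ones lying above 0 and 3 of them past 2-fold, with summed intensities of 14486 and 7676. Of 7 differentiated keratinocyte markers, 4 were at least 2-fold lower, with sums of 998 and 13546, but Klk14 alone made up 307 and 11121 of these, and without it the sums were 690 and 2426. Ivl read 143 and 141, and Krt1 and Flg were near the threshold in both models. The fibroblast marker Lum was below it on both arrays. In bulk RNA, fewer cells of a type and less RNA per cell cannot be told apart. The part of this shift in the values of Dkk3, Fzd1, Rspo3, Wnt4, Sfrp1 and the other members was not tested. Of the adipocyte list, 3 of 4 expressed markers were past 2-fold upward, with sums of 5217 and 954. Fabp4 gave 4974 and 816 of these, Lpl and Cd36 reached the threshold on the knockout array only, and Adipoq, a defining marker, was near background (28.7 and 30.4). Of the melanocyte list, 2 of 4 were past 2-fold upward, Mlana and Mitf, with sums of 1290 and 447. Sox10 read lower (-0.37), and Dct, Tyr and Tyrp1 were below the threshold on both arrays. Of the dermal papilla and hair follicle list, Prom1 (135 and 51.4) was 1 of 3 expressed markers, beside Alpl (-0.09) and Corin (0.37), with Shh and Krt71 below the threshold. Endothelial (2 expressed), macrophage (2) and Schwann cell markers (1) were few. The endothelial marker Kdr (87.4 and 36.1) was past 2-fold upward but reached the threshold on the knockout array only. The expressed macrophage and Schwann cell markers lay below 0.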

How the data were processed

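RNA of 1 knockout and 1 wildtype skin model was hybridised to 1 array each, per the labels. Per the labels' protocols, RNA was amplified to sense-strand cDNA and labelled with biotin. Not given in the sources used here are the scanner, the summary of probes and any normalization between arrays. The deposited intensities are on a linear scale, and 67457 of 67586 had lost their decimal point. A place of the point was possible if it gave a single-precision number that is 2 raised to a single-precision exponent, lay between 18 and 20000, and left at least 3 decimals. The last condition was taken from the data: the 129 values that kept their point had fewer, and of 16639 values with 1 place by form alone, 0 had fewer. Pairs of places were weighted by the joint distribution of level and difference, learnt in 25 rounds of expectation maximisation, and kept at a probability of at least 0.95. This settled 31880 of 33793 probe sets, with 46.9 wrong places expected among them. The restoration was tested on simulated data.

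Log2 values were taken with no further normalization, since the column medians were 46.3 and 46.7. Probe sets with several symbols (1814) or none (8458) were not used, and a gene with several probe sets was represented by that of the highest mean. The part and strand of the gene that each probe set covers were not analysed. All 56 member genes matched the RefSeq table of GRCm38.p6 by Entrez identifier. Each expressed member is named. Of the pathway lists, the genes at least 2-fold apart and the pair with the highest mean in each list are named. Some further genes of these lists were named after their values were seen. Of the marker lists, only some genes are named. The members and lists were chosen with earlier results of these data known. With 1 array per group no p-value was computed, and the number of arrays limits the precision. The work used Python 3.11.15 with numpy 2.4.6, pandas 2.3.3 and matplotlib 3.10.9.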

Additional observations from a re-analysis of the deposited data

How the results depend on the processing

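The Wnt list had 1 gene at least 2-fold higher under each alternative except 1 possible place only (0), a threshold of 1.5-fold (6) and one of 3-fold (0). It had 1 gene at least 2-fold lower except at 1.5-fold (4), at 3-fold (0) and with a pseudocount of 16 (0). The pathway lists had 4 genes at least 2-fold apart, 15 at 1.5-fold and 1 at 3-fold, and from 3 to 5 elsewhere. The list median stayed within 0.1 of its value, from -0.04 to 0.07. Of 423 differences of expressed members under 11 alternatives, 2 moved by 0.2 or more, Axin2 as the mean of its probe sets (0.29) and Notum with 1 possible place only (-0.24). Most of the 423 could not move that far. Settings that only filter leave the difference of a gene with 1 probe set as it is, and median centring shifts all genes alike. The small number moved is therefore no measure of robustness. Notum and, with the mean of its probe sets (-0.02), Lrp6 turned in sign. The setting that kept probe sets whose difference alone was settled was chosen after seeing the data. No paired analysis was possible because there is 1 array per genotype, which also leaves none to omit. Differences near the background of 21.4 are compressed. For a probe set with several possible places, a true difference near 3.3 log2 could be hidden, so that a value near 0 is firm only where 1 place was possible.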
